A study of Mus musculus with 9 samples.

Results

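The alpha and beta tubulins are the building blocks of microtubules, and 10 of their genes were followed here: 4 alpha genes (Tuba1a, Tuba1b, Tuba1c and Tuba4a) and 6 beta genes (Tubb2a, Tubb2b, Tubb3, Tubb4b, Tubb5 and Tubb6). They were chosen by gene symbol from the 19769 genes of an RNA-seq table. No measured value entered the rule, but earlier results of these data were known when the choice was made. The RNA came from primary mouse embryonic fibroblasts (MEFs) that were homozygous for a Myc-Egfp fusion at the endogenous Myc locus, so that both groups carried the tagged allele and made MYC protein joined to green fluorescent protein. Cells of both groups had been treated with the proteasome inhibitor MG-132, sorted by green fluorescence into low-MYC and high-MYC cells, and seeded overnight. Each group had 2 libraries, which were technical replicates, so every p-value below compares these libraries and not separate cultures. Spike-in RNA (ERCC) had been added according to cell number, and the deposited unit is fragments per kilobase divided by a spike-in score (normalized FPK), a level per cell. These levels summed to 46321 and 48291 over all genes in the low-MYC libraries and to 102853 and 109090 in the high-MYC libraries. For the 3 tubulin genes on chromosome 15, FUBP1 peaks from 1 ChIP-seq sample of primary MEFs and 1 table of reads from nuclease-accessible chromatin (TACh-seq) were added. The TACh-seq samples were 2 of wild-type MEFs and 2 of MEFs with Fubp1 knocked out and Fubp2 knocked down (KOKD), and the table does not separate them. FUBP1 is a protein that binds single-stranded DNA upstream of Myc.

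An alpha and a beta subunit pair to form the tubulin dimer, and dimers join end to end into the wall of the microtubule, which carries cargo, shapes the cell and builds the mitotic spindle. Newly made subunits are folded by the CCT chaperonin with the help of prefoldin and are then joined by the tubulin cofactors. Cells also adjust tubulin mRNA to the supply of free dimers: TTC5 recognizes the first amino acids of a tubulin chain as it leaves the ribosome, and the mRNA is then degraded. Isotypes differ mostly near their C-terminal tails, and Tubb3 is best known as a neuronal isotype.

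The first 12 coding bases are shown for 9 of the genes because the peptide read by TTC5 is encoded there. Capitals mark the 3 codons after the start codon.
Tuba1a: atgCGTGAGTGC
Tuba1b: atgCGTGAGTGC
Tuba1c: atgCGTGAGTGC
Tuba4a: atgCGCGAGTGC
Tubb2a: atgCGCGAGATC
Tubb2b: atgCGAGAGATC
Tubb3: atgAGGGAGATC
Tubb4b: atgAGGGAGATC
Tubb5: atgAGGGAAATC
The alpha genes shown differ from the beta genes shown at the last of these codons, TGC against ATC. The 3 chromosome 15 genes were identical over the stretch, as were Tubb3 and Tubb4b.

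The coding sequences are close enough that RNA-seq reads may not separate them. Tuba1a and Tuba1b were identical at 98.3% of aligned coding bases, Tuba1b and Tuba1c at 97.93%, and Tubb2a and Tubb2b at 96.48%, whereas alpha and beta genes matched at 52.19% to 55.1%. Of the 75-base windows of each transcript, 31.8% in Tuba1a, 28.1% in Tuba1b and 43.3% in Tuba1c occurred in no transcript of another gene. The share was 56.8% in Tubb2a, 67.8% in Tubb2b and 62.2% in Tubb4b, and 100% in Tuba4a, Tubb3, Tubb5 and Tubb6. Levels of the first 6 genes are therefore uncertain as far as the quantification divided shared reads among the copies and pseudogenes.

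Tuba1b, on chromosome 15 from 98931425 to 98934565 on the minus strand (mm10, as are all positions here), had the highest level of the 10 genes. Its normalized FPK was 188.2 and 194.1 in the low-MYC libraries and 443.1 and 455.7 in the high-MYC libraries. The groups did not overlap, and the mean was 2.351 times as high in high-MYC cells, 449.4 ± 8.91 against 191.2 ± 4.18 (SD, n = 2). Tuba1a, at 98949837 to 98953703 on the same strand, measured 146.2 and 151.1 against 357.2 and 361.4 normalized FPK, a ratio of 2.417. Tuba1c, on the plus strand from 99029891 to 99038110, was lower at 17.83 and 18.8 against 41.0 and 42.87 normalized FPK, a ratio of 2.289. Among the 762 genes of chromosome 15 in the table, these 3 ranked 2, 3 and 12 by mean level.

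Tuba4a, on chromosome 1 (75214228 to 75219865, minus strand), had the lowest level of the 10 genes, with 1.918 and 1.923 normalized FPK in low-MYC cells and 4.28 and 4.542 in high-MYC cells. Both high-MYC values lay above both low-MYC values, at a ratio of 2.297.

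Among beta genes, Tubb5 on chromosome 17 (35833921 to 35838306, minus strand) was highest, at 147.0 and 149.6 normalized FPK in low-MYC cells and 348.6 and 352.9 in high-MYC cells, a ratio of 2.365. Tubb4b on chromosome 2 (25222160 to 25224702, minus strand) followed with 60.73 and 62.34 against 149.4 and 151.8, a ratio of 2.448. The neighbouring pair on chromosome 13 came next. Tubb2b (34126748 to 34130466, minus strand) gave 18.36 and 18.51 against 41.31 and 41.39 normalized FPK, a ratio of 2.243 and the smallest of the 10. Tubb2a (34074274 to 34078007, minus strand) gave 13.07 and 13.04 against 33.69 and 32.84, a ratio of 2.548. In neither gene did the groups overlap.

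Tubb6, on chromosome 18 (67390717 to 67402749, plus strand), measured 14.26 and 14.41 normalized FPK in low-MYC libraries and 37.02 and 37.3 in high-MYC libraries, a ratio of 2.592. Tubb3, on chromosome 8 (123411424 to 123422015, plus strand), was the lowest beta gene and had the largest ratio of the 10, at 2.298 and 2.278 against 6.547 and 6.451 normalized FPK, or 2.841. Of 10 neuron markers, 8 were in the table and only Stmn2 passed the filter on low values. The summed level of the 8 was 0.3331 to 0.3366 in low-MYC libraries and 0.8319 to 0.9069 in high-MYC libraries, below that of Tubb3 alone. Stmn2 made up most of it, at 0.2713 and 0.2624 against 0.6263 and 0.6648. Gap43 measured 0.03516 and 0.03683 against 0.1113 and 0.123, and Map2 0.01185 and 0.01166 against 0.04567 and 0.05107. Of the 8, only Elavl3 had overlapping groups. This does not set the markers apart, since 97.1% of all genes tested rose per cell (limma adjusted p under 0.01). Rbfox3, a neuronal nuclear protein, was the lowest and did not exceed 9.25e-05 in any library. The part of neurons in the Tubb3 level was not tested.

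**Figure D1:**
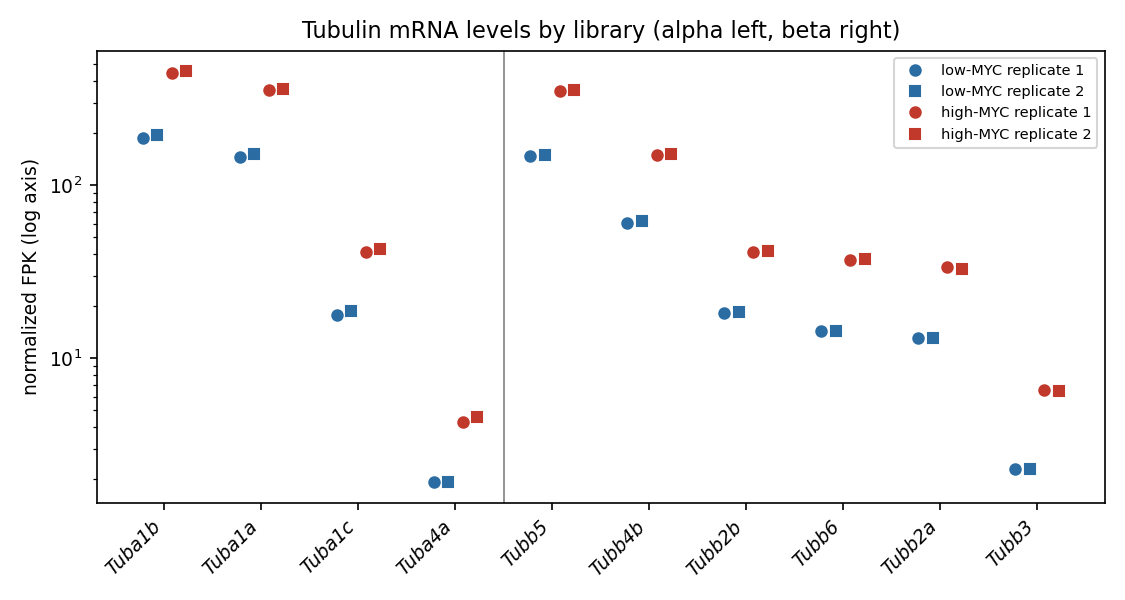
Normalized FPK (log axis) of the 10 tubulin genes, alpha genes left of the line and beta genes right of it, with 1 point for each library (blue, low-MYC; red, high-MYC; circles, replicate 1; squares, replicate 2). For every gene both red points lie above both blue points, from 4.28 against 1.923 in Tuba4a to 443.1 against 194.1 in Tuba1b. On this per-cell scale 97.1% of all genes tested rose (limma adjusted p under 0.01).

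Levels are per kilobase of transcript and can be ordered across genes. In low-MYC cells the order was Tuba1b, Tuba1a, Tubb5, Tubb4b, Tubb2b, Tuba1c, Tubb6, Tubb2a, Tubb3 and Tuba4a. The libraries of Tuba1a and Tubb5 overlapped, as did those of Tubb2b and Tuba1c, so neither pair could be ordered, and the other neighbours were separate. In high-MYC cells Tuba1a lay above Tubb5, 357.2 against 352.9 at the closest libraries, and only Tuba1c and Tubb2b overlapped. Tubb5 was also the gene whose 4 values lay nearest those of Tuba1a among all genes tested, at a Euclidean distance of 0.0516 on the log2 scale over the 4 libraries, followed by Vim (0.154), Rps2 (0.219), Rpsa (0.224) and Myl6 (0.226). This distance reflects level above all else.

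To ask whether tubulin mRNA per cell differed with MYC, log2(normalized FPK + 0.1) was compared with limma over the 11870 genes whose mean reached 0.1. All 10 tubulins rose at an adjusted p under 0.01, where 97.1% of all genes tested did, and all 10 rose at least 2-fold, where 55.1% did. Folds are those of values with 0.1 added. This lowers them most for genes at low levels, and so lowers the 55.1%. The log2 fold changes ran from 1.16 to 1.47, with limma SEs of 0.0391 to 0.0497 and adjusted p-values of 1.043e-05 to 1.059e-05. The median over the 10 was 1.26, beside 1.03 over all genes tested and 1.16 over the 913 genes whose mean reached 10. The added 0.1 also lowers the 1.03. The median level over all genes tested was 0.5429 and 0.5554 in low-MYC libraries and 1.205 and 1.282 in high-MYC libraries. In these bulk libraries, fewer cells of a type and less RNA per cell cannot be told apart.

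Since nearly every gene rose per cell, the same test was run after each library was scaled to the same median gene. On that scale none of the 10 genes passed an adjusted p under 0.01 in limma, where 1.76% of genes were called higher and 0.531% lower. At an adjusted p under 0.05, Tubb3 and Tubb6 were higher, 2 of 10 beside 7.84% of all genes. Tubb3 differed by a log2 of 0.32 (SE 0.0481, limma adjusted p = 0.03198). Tubb6 differed by 0.19 (SE 0.0378, limma adjusted p = 0.04931). Neither call was stable to leaving out 1 library: limma's adjusted p for Tubb6 was 0.06893 to 0.2293 whichever library was left out, and that for Tubb3 was 0.1128 without low-MYC replicate 1, 0.1548 without low-MYC replicate 2, 0.07954 without high-MYC replicate 1 and 0.04931 without high-MYC replicate 2.

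The scaled levels show how small these differences were. Tubb3 gave 3.79 and 3.68 in low-MYC libraries and 4.87 and 4.51 in high-MYC libraries. For Tubb6 the scaled levels were 23.5 and 23.3 against 27.5 and 26.1. Both high-MYC libraries lay above both low-MYC libraries in 8 of the 10 genes, beside 30.7% of all genes, and the groups overlapped in Tuba1c and Tubb2b. Tuba1b (log2 difference 0.05, limma adjusted p = 0.3319), Tuba1a (0.09, adjusted p = 0.179) and Tubb5 (0.06, adjusted p = 0.3211), the most abundant 3, did not pass either threshold, and their differences changed by over 1.5 times between fits with 1 library left out (0.0302 to 0.0792, 0.0585 to 0.1312 and 0.0273 to 0.0991).

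**Figure D2:**
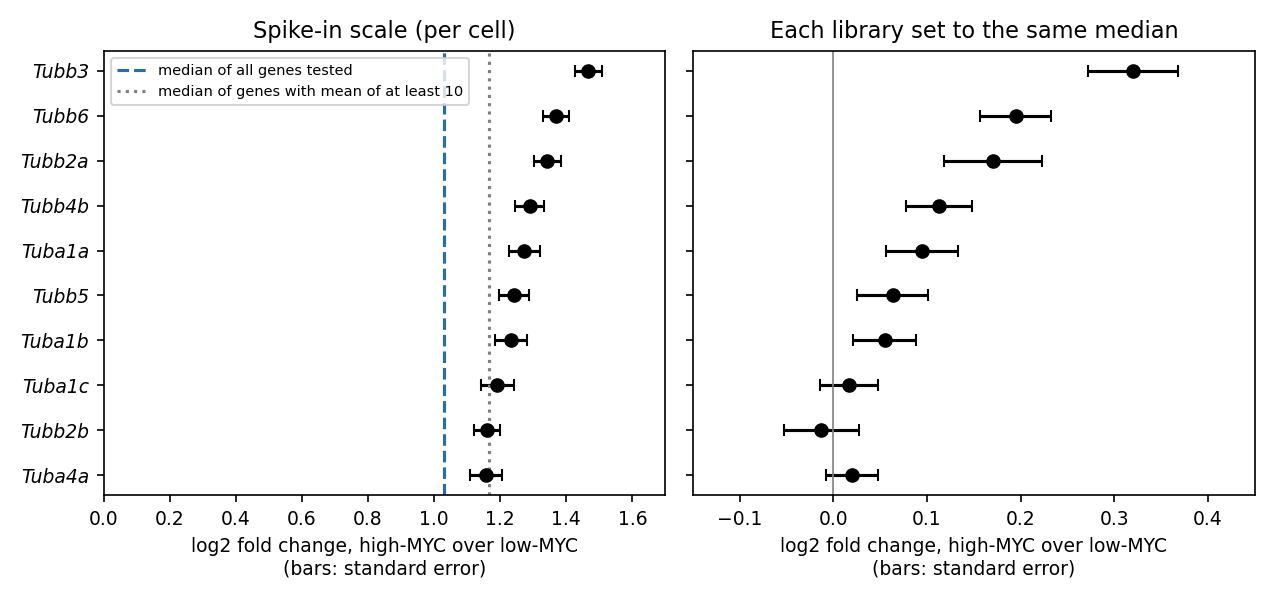
Log2 fold change (high-MYC over low-MYC, bars: SE) of the 10 tubulins on the spike-in scale (left, dashed line at the median of all genes tested, 1.03, dotted line at that of genes with a mean of at least 10, 1.16) and after each library was set to the same median gene (right, line at 0). All 10 points lie right of the dashed line on the left, and on the right Tubb3 (0.32) lies farthest from 0 while Tubb2b (-0.01) is the only point below it.

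The make-up of each family was then compared as shares of its summed normalized FPK. Tuba1b and Tuba1a supplied most alpha tubulin mRNA in every library. Tuba1b held 53.14% and 53.05% of it in low-MYC libraries and 52.4% and 52.71% in high-MYC libraries. Tuba1a held 41.28% and 41.29% against 42.24% and 41.8%, and Tuba1c 5.035% and 5.138% against 4.849% and 4.959%. In each of these 3 genes the groups were separate, and since reads are divided among them by estimation, the split itself is uncertain.

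Beta tubulin mRNA was led by Tubb5, with 57.49% and 57.5% in low-MYC libraries and 56.54% and 56.67% in high-MYC libraries. Tubb4b held 23.74% and 23.96% against 24.23% and 24.38%. Tubb2b was lower as a share, 7.179% and 7.115% against 6.7% and 6.648%, while Tubb6 was higher, 5.577% and 5.538% against 6.003% and 5.99%. Tubb3 went from 0.8985% and 0.8754% to 1.062% and 1.036%. With 2 libraries a group an exact two-sided permutation test cannot go below p = 0.333, so these shares are given as values. The ratio of summed alpha to summed beta level was 1.385 and 1.406 in low-MYC libraries and 1.371 and 1.388 in high-MYC libraries, and the groups overlapped.

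**Figure D3:**
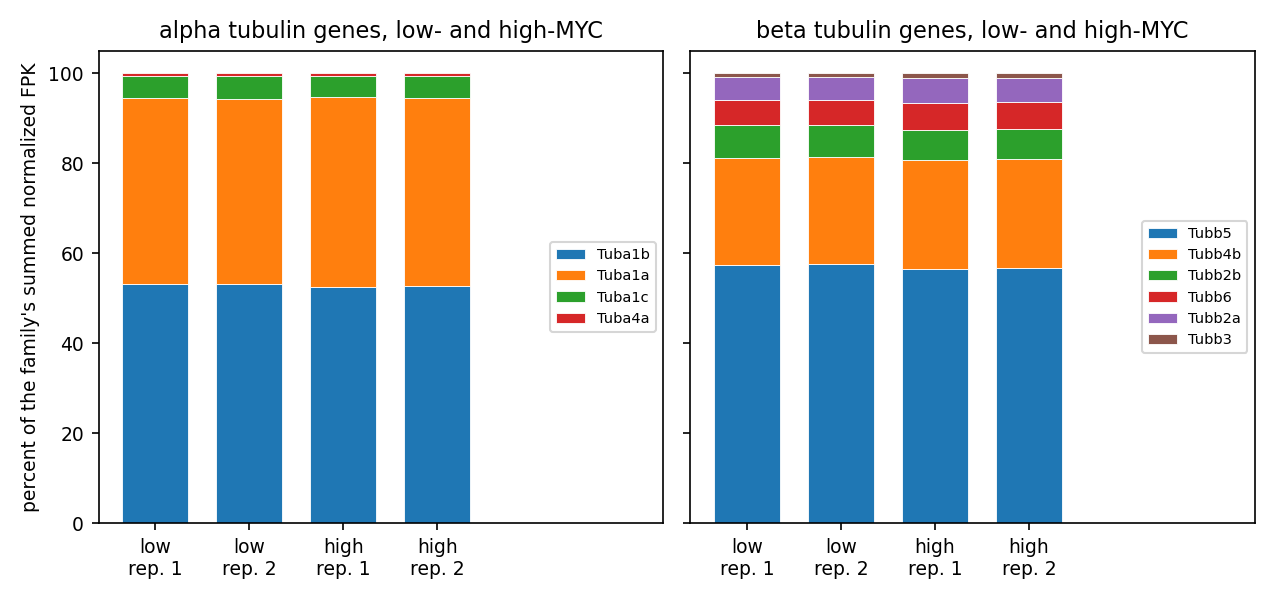
Share of each gene in the summed normalized FPK of its family (percent, bars from 0 to 100), for the 2 low-MYC and 2 high-MYC libraries, alpha genes left and beta genes right. The bars of the 4 libraries look alike, with Tuba1b at 52.4% to 53.14% of alpha and Tubb5 at 56.54% to 57.5% of beta tubulin mRNA.

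Genes that fold, join, nucleate and modify tubulin are given by list, beside the 97.1% of all genes tested that rose per cell and the 55.1% that rose at least 2-fold. Nearly every gene rose on that scale, so rising counts near these shares do not set a list apart. All 8 CCT chaperonin genes rose at least 2-fold (median log2 fold change 1.11). Relative to the median gene, by limma, none of them was called, with log2 differences from -0.09 in Cct7 to -0.02 in Tcp1. All 6 prefoldin genes rose, 3 of them at least 2-fold, and Pfdn2 was lower relative to the median gene at an adjusted p under 0.05 (log2 difference -0.14, limma adjusted p = 0.04857). Pfdn6 had the lowest log2 difference of the complex, -0.17 (limma adjusted p = 0.1131). The 8 genes of the tubulin cofactors and autoregulation rose, 4 at least 2-fold. Ttc5 among them measured 0.4106 and 0.4004 normalized FPK in low-MYC cells and 0.8446 and 0.874 in high-MYC cells. Relative to the median gene the list ran from -0.13 in Tbce to 0.12 in Arl2, and none of its genes was called.

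All 9 genes of the gamma-tubulin ring complex, which nucleates microtubules, rose, 6 of them at least 2-fold. So did 14 of 14 tested genes of microtubule binding and tip tracking (8 at least 2-fold), 11 of 11 tested tubulin modifiers (6) and 4 of 4 tested severing genes (1). Relative to the median gene, Fignl1, a severing-type ATPase, was the only one of these called at an adjusted p under 0.05 (log2 difference 0.27, limma adjusted p = 0.03198). Of 10 other tubulin genes, 6 were tested and rose, all at low levels but for Tubg1. With 0.1 added to each value, 3 rose at least 2-fold. The added 0.1 lowers the fold of genes at such levels, so Tubb4a was not among the 3 (log2 fold change 0.93). Tubb4a, a beta isotype best known from brain, was called relative to the median gene at an adjusted p under 0.05 (log2 difference 0.24, limma adjusted p = 0.04024). It measured 0.08232 and 0.08543 normalized FPK in low-MYC cells and 0.2365 and 0.2633 in high-MYC cells. Tubb4a thus passed the filter at a mean of 0.1 only through its high-MYC values, so its call is not independent of the filter. Log2 differences on the same scale ran from -0.04 in Mzt2 to 0.14 in Tubgcp2 for the ring complex, from -0.15 in Map1b to 0.19 in Mapre2 for tip tracking and binding, and from -0.17 in Vash2 to 0.17 in Atat1, the alpha tubulin acetyltransferase, for the modifiers.

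Fibroblast markers were present in every library, with a summed level of 333.6 to 338.7 in low-MYC and 801.5 to 818.2 in high-MYC libraries. Per cell, 10 of 10 rose at least 2-fold (55.1% of all genes). Relative to the median gene, 3 of 10 were higher at an adjusted p under 0.01 (1.76% of all genes). These were Lum (log2 difference 1.33), Dcn (0.90) and Pdgfra (0.35), and Vim was the lowest of the list at -0.05. Macrophage markers moved with the groups. Of 12, 8 were tested, and 8 of 8 were higher relative to the median gene at an adjusted p under 0.01 (1.76% of all genes). Csf1r, C1qa, C1qb, C1qc, Tyrobp and Fcer1g lay under 0.1 in both low-MYC libraries. They passed the filter through the high-MYC libraries alone, which favours a higher call, so the 8 of 8 is not independent of the filter. The summed level of all 12 was 0.6213 to 0.8546 in low-MYC and 26.51 to 27.69 in high-MYC libraries. Adgre1, C1qa and Tyrobp were listed at 0 in a low-MYC library. Markers of cycling cells also stood higher, with 8 of 8 at least 2-fold higher per cell (55.1% of all genes, median log2 fold change 1.34). Relative to the median gene, 4 of 8 were called higher at an adjusted p under 0.05 (7.84% of all genes). From the same RNA-seq, the authors report that genes of defined cell cycle stages could not be told apart between the populations. Their comparison used a published gene set rather than this list of 8. The 8 tested macrophage genes ran from 1.06 in Csf1r to 5.92 in Lyz2 in log2 difference relative to the median gene. The part of these cells in the tubulin differences was not tested.

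The 3 chromosome 15 genes differed in what lies before their starts. The 250 bases upstream of each GENCODE M21 start (GRCm38, strand of the gene) are shown because accessible-chromatin reads lay there in all 3 genes. A FUBP1 peak reached into this stretch in Tuba1b alone. Capitals mark matches, on either strand, to the CCAAT box spelled as in its name. The GC box was searched as GGGCGG on both strands as well. CACGTG is the E-box that MYC can bind. For the TATA box the letters were TATAAA, without a match here, and no match overlapped another.
Tuba1b (chr15:98934566-98934815, minus strand): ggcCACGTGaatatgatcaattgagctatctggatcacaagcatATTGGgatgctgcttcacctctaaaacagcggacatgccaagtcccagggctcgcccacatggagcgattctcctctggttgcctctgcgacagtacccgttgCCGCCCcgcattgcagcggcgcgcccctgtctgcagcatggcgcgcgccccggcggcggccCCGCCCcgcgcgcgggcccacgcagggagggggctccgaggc
Tuba1a (chr15:98953704-98953953, minus strand): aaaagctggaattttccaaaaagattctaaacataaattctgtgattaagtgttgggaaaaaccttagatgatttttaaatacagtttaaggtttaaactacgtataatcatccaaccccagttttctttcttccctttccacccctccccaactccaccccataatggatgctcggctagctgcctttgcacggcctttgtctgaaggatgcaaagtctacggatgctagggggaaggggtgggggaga
Tuba1c (chr15:99029641-99029890, plus strand): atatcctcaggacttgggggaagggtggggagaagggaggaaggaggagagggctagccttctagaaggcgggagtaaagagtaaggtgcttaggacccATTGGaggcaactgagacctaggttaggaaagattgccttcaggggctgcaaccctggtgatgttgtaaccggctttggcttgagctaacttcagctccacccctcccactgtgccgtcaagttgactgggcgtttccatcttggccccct
In Tuba1b the E-box lay at -247 to -242, the CCAAT box at -206 to -202 and GC boxes at -103 to -98 and -42 to -37. Tuba1c held a CCAAT box at -151 to -147, and none of the 4 motifs was found in this window of Tuba1a. GC content was 66.4% in Tuba1b, 42.8% in Tuba1a and 55.6% in Tuba1c. Among 21935 such promoters, 35.99% held a CCAAT box, 39.02% a GC box, 6.528% the E-box and 11.52% a TATA box. The RefSeq start of Tuba1a lies 202 bp inside the GENCODE start and that of Tuba1b 175 bp inside, so the window depends on the annotation: upstream of the RefSeq start, Tuba1a held 1 CCAAT box and 1 GC box, and Tuba1b held 2 GC boxes, no E-box and no CCAAT box.

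FUBP1 peaks were found at both ends of Tuba1b and Tuba1a and not at Tuba1c. The authors report some cross-reaction of the ChIP antibody with the related protein FUBP2. At Myc some signal remained in Fubp1 knockout cells, which they call likely cross-reaction. The part of FUBP2 in the peaks given here was not tested. The peak at the 5′ end of Tuba1b (98933201 to 98935200, 2000 bp) ran from -635 to +1364 from the start and covered all 233 bases of exon 1 and most of intron 1. A peak at its 3′ end (98929201 to 98931400, 2200 bp) began 24 bp past the annotated gene end. In Tuba1a the 5′ peak (98951801 to 98953600, 1800 bp) ran from +103 to +1902, within the gene, and took in 150 bases of exon 1. Its 3′ peak (98947601 to 98950000, 2400 bp) held the last 164 bases of exon 4 and 2236 bases beyond. For Tuba1c the nearest peak was 76290 bp away.

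An overlapping FUBP1 peak was found for 9.17% of the 785 protein-coding genes of chromosome 15 and for 13.5% of the 407 with a mean of at least 0.1 normalized FPK. Among the 20 most abundant, which include all 3 tubulins, 13 had a peak and 4 had peaks at both ends (Tuba1b, Tuba1a, Myh9 and Myc), so peaks were common among genes as abundant as Tuba1b and Tuba1a. Over the 785 genes, separate peaks within 1000 bp of the start and of the end were found for 1.02%, or 8 genes: Myc, Ccn4, Myh9, Slc38a2, Tuba1b, Tuba1a, Cbx5 and the overlapping gene model Gm49450. The bodies of Tuba1b and Tuba1a between their peaks, exons 2 to 4, held no peak apart from the stretch of exon 4. There, only 45.5% of 76-base windows in Tuba1b and 53.55% in Tuba1a occur once in the genome, beside 100% in intron 1 and in the 2000 bp past the end of both genes. The part of this repetition in the gap between peaks was not tested. Antisense to Tuba1b, the lncRNA Gm41396 overlaps its start and did not exceed 0.01067 normalized FPK. Within 20000 bp lay Lmbr1l, at 0.2885 to 0.5385, and Prph, which encodes peripherin, at 0.005737 to 0.01451. Peaks carry no height here, and there was 1 sample, so no error can be given.

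Accessible-chromatin reads were present at the starts of all 10 tubulins. The table holds only reads in dense runs, 25379 islands of at least 42 reads separated by more than 1000 bp, so a stretch outside an island has no measured level and not a level of 0. An island lay within 1000 bp of the start in 10 of 10 tubulins, beside 84.7% of the 10240 protein-coding genes with a mean of at least 0.1 normalized FPK. No column of it names a library, so wild-type and KOKD MEFs could not be compared.

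Within 1000 bp of the start, Tuba1c held 385 reads (exact 95% Poisson interval 347.5 to 425.4), Tuba1b 278 (246.3 to 312.7) and Tuba1a 251 (220.9 to 284.0). Tuba1c lay above both, whereas the intervals of Tuba1b and Tuba1a overlapped. The median of 407 chromosome 15 genes with a mean of at least 0.1 was 141, with quartiles of 84.5 and 214. Intervals cover counting error only. The order of reads did not follow that of mRNA, in which Tuba1c was lowest.

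The islands had different shapes. That of Tuba1a ran from -1460 to +2059 and ended in exon 2, as did the first island of Tuba1b. In exon 2, only 43.05% of 76-base windows in Tuba1a and 33.18% in Tuba1b occur once in the genome. The part of this repetition in where the islands end was not tested. At Tuba1b a first island ran from -1330 to +1430 with 345 reads, and a second, of 127 reads, ran from +2511 to +6207 and took in the 3′ FUBP1 peak, which held 55 reads. The 3′ peak of Tuba1a lay outside any island, although every 76-base window in the 2000 bp past the gene end occurs once in the genome. At Tuba1c a single island of 536 reads ran from -950 to +4876, the largest of the 3. Elsewhere reads within 1000 bp of the start ranged from 74 in Tuba4a to 555 in Tubb4b.

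**Figure D4:**
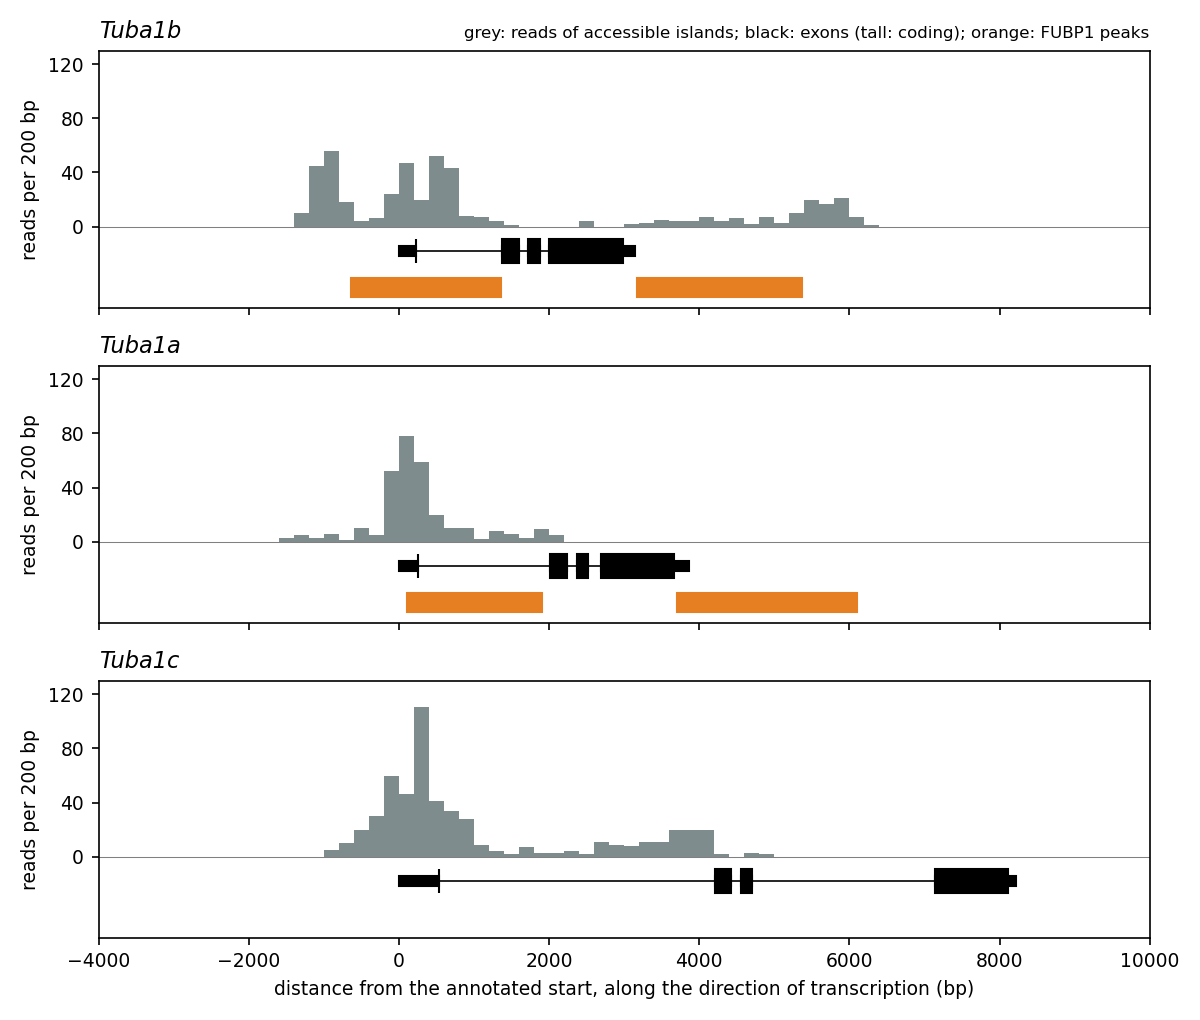
Reads of accessible islands per 200 bp (grey bars) against distance from the annotated start in bp, along the direction of transcription, for Tuba1b, Tuba1a and Tuba1c, with exons in black (tall: coding) and FUBP1 peaks in orange. Reads gather around the starts, peaks flank Tuba1b and Tuba1a, and Tuba1c has no peak and the most reads within 1000 bp of its start (385); empty stretches lie outside the islands and were not measured.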

How the data were processed

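Data were 4 RNA-seq libraries of MEFs sorted by MYC level, 1 FUBP1 ChIP-seq sample and TACh-seq of 4 samples, all of whose labels point to a single table. For RNA-seq, the authors aligned reads to the mm10 transcriptome with TopHat, used Partek's expectation-maximization method for quantification, and divided by transcript length and by a spike-in score from ERCC transcripts; the deposited signal values are this normalized FPK. Versions are not given in the sources used here. Annotated gene ends were used, as those deposited run 1 base longer. Read counts are not in this unit; the size of the steps between low values gave a rough estimate of 972 to 94346 reads per tubulin and library, and replicates differed by 0.199% to 6.12%.

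For ChIP-seq the authors used Bowtie2 and SICER against input; positions alone were deposited, for chromosome 15. The TACh-seq table deposited by the authors lists 4881417 reads with a mapping score of 11 to 42 each. Tested on the file, every read lay in an island of at least 42 reads, so it holds reads of such islands alone; the methods state that TACh-seq peaks were called with SICER, and the step that made this table is not given in the sources used here. Design had assumed separate libraries.

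Groups were compared by limma 3.58.1 (lmFit, eBayes with trend; R 4.3.3) on log2(normalized FPK + 0.1), keeping genes whose mean reached 0.1, with Benjamini-Hochberg adjustment, on the spike-in scale and with each library scaled to the same median. Genes were called at an adjusted p under 0.01. The procedure was tested on simulated data. Genes named are the 10 tubulins, members of the lists with the highest or lowest values, and the 5 genes nearest Tuba1a. Genes within 20000 bp of the chromosome 15 tubulins are named as well. Ttc5, Pfdn2, Tubb4a, Rbfox3, Gap43, Map2, Elavl3, Adgre1, C1qa, C1qb, C1qc, Tyrobp, Fcer1g and the genes with 2 peaks were named after their values were seen. The tubulins and lists were chosen with earlier results of these data known. Peaks and reads were set against GENCODE M21 (GRCm38), with 1-based positions. Sequence uniqueness was counted by exact match. Other steps ran in Python 3.11.15 (pandas 2.3.3; scipy 1.17.1; numpy 2.4.6; figures with matplotlib 3.10.9). Alternatives covered the pseudocount, minimum mean, scaling, trend, replicate block, each library, overlap rule and read filter.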

Additional observations from a re-analysis of the deposited data

How the results depend on the processing

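All 10 tubulins rose per cell under every alternative pseudocount, filter, trend setting, threshold and replicate block, and with each library left out (10 to 10). All 10 also rose at least 2-fold, except that 9 did with a pseudocount of 1. Relative to the median gene, the number called higher was 1 with a minimum mean of 1 (Tubb3, 0.308, limma adjusted p = 0.003084), 2 at an adjusted p under 0.05, and 0 to 0 with a library left out. Those 2 calls were fragile at 0.05: Tubb6 was lost with each of the 4 libraries left out (limma adjusted p = 0.06893 to 0.2293), with a pseudocount of 1 (0.05221), no filter (0.06537) and no trend (0.05801), and Tubb3 with 3 of the 4 libraries left out (0.07954 to 0.1548) and no filter (0.05106). Log2 differences near 0 changed sign: Tuba1c to -0.0162 and Tuba4a to -0.012 with no filter on low values, Tuba1c to -0.0051 without low-MYC replicate 1, and Tubb2b to 0.0301 without high-MYC replicate 2 and to 0.0023 with scaling by the total. With a library left out, Tuba1c ranged from -0.0051 to 0.0383 and Tubb2b from -0.0562 to 0.0301. The difference in the alpha to beta ratio ranged from -0.02665 to -0.004851 with a library left out. Adding Tuba1b and Tuba1c to Tuba1a leaves Tuba4a as the rest of the family, so the difference in share, 0.01773 percentage points, is that of Tuba4a with its sign turned.

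Whether replicate numbers pair the libraries cannot be told from these values. Deviations of same-numbered libraries correlated at 0.081 across genes. With 2 libraries a group, the -0.081 for different numbers is that value with its sign turned and adds no contrast. With the replicate block, 10 tubulins remained higher per cell and 0 were called relative to the median gene.

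Requiring at least 50% of a peak inside the gene left 1 FUBP1 peak at Tuba1a, and extending genes by 1000 bp gave 2 at Tuba1b. Counting reads of the same position and strand once gave 185 reads at Tuba1a, 208 at Tuba1b and 303 at Tuba1c; within 500 bp of the start there were 214, 120 and 284, so that Tuba1a lay above Tuba1b in the narrower window. A mapping score minimum of 10 removed no read. A score of 42, chosen after seeing the data, changed no count beyond its interval. Technical replicates, shared reads among paralogs and a read table not tied to a library limit all of these values.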
